A study of Mus musculus with 11 samples.

Results

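Lipopolysaccharide (LPS), a bacterial cell wall component, was given to cells that had received either a control siRNA or an siRNA against Tet2, and the difference between both LPS responses is described here for every gene. For each gene this difference is (LPS minus untreated with Tet2 siRNA) minus (LPS minus untreated with control siRNA), so a value below 0 means a smaller increase, or a larger decrease, after LPS in Tet2 siRNA cells. It needs all 4 groups of the study, that is 11 of its 11 libraries, and was tested for 12486 of the 26061 genes of the table. No gene passed the test. The list of genes with the lowest values was that of interferon-stimulated effectors, of which 59 of 60 had a difference below 0, with a median of -0.93 on the log2 scale.

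The cells were BV2, an immortalised mouse microglial line, and RNA was selected by its poly(A) tail and made into strand-specific libraries. There were 3 libraries with control siRNA and no LPS, 3 with control siRNA and LPS, 3 with Tet2 siRNA and no LPS, and 2 with Tet2 siRNA and LPS, which carry the replicate numbers 2 and 3. Both siRNAs were delivered with Lipofectamine 3000, so the control cells were transfected too. Growth was in 10% serum, and 48 h after transfection the medium was changed to 5% serum and LPS was added at 1 µg/ml for 3 h. All results come from 1 cell line and a transient transfection. Whether replicates came from separate cultures is not stated by the labels, so p-values measure the spread between these libraries, which may be technical. In RNA from bulk cells, fewer responding cells and less RNA per cell cannot be told apart.

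LPS binds Toll-like receptor 4, which signals along a pair of branches. One goes through MyD88 to NF-kB and switches on genes such as Tnf and Il1b, while the other goes through TRIF to IRF3 and switches on Ifnb1, whose product, interferon beta, acts back on the cell through its receptor and JAK kinases. The transcription factors this activates bind the interferon-stimulated response element (ISRE) in the promoters of interferon-stimulated genes. Tet2 oxidises 5-methylcytosine in DNA and is itself raised by LPS in macrophages and microglia.

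A DNA motif of each branch was searched in promoters, and 5 windows are printed, chosen because they hold a match, so that the ISRE core of interferon-stimulated genes can be read beside the kappa-B motif of Il6, an NF-kB target. Many genes discussed below hold neither: Ifit2, Irf1, Jak2, Tap1 and Ifnb1 had no ISRE core in their windows, and Tnf, Il1b and Ptgs2 had no kappa-B motif. Each holds the 250 bases before the RefSeq start of the gene in GRCm38, read on the strand of the gene. Capitals mark the matches, on either strand, to an ISRE core of letters GAAANNGAAA in Irgm2, Ifit3, Igtp and Cxcl10 and to a kappa-B motif of letters GGGNNTTTCC in Il6.
Irgm2, chr11:58214727-58214976, plus strand: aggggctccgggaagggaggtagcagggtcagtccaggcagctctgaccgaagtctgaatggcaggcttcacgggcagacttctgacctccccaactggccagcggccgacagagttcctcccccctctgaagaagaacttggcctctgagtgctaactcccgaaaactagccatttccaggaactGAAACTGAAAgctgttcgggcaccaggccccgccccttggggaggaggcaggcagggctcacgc
Igtp, chr11:58199306-58199555, plus strand: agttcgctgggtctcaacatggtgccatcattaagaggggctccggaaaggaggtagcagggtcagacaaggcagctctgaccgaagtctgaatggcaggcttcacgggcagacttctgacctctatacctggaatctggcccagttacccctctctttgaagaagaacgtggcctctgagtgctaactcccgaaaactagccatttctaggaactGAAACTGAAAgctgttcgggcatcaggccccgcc
Ifit3, chr19:34583279-34583528, plus strand: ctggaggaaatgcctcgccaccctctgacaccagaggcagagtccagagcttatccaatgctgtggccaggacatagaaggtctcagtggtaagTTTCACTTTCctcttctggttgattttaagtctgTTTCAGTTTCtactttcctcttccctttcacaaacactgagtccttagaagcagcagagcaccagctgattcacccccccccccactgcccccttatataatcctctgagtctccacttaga
Cxcl10, chr5:92348890-92349139, minus strand: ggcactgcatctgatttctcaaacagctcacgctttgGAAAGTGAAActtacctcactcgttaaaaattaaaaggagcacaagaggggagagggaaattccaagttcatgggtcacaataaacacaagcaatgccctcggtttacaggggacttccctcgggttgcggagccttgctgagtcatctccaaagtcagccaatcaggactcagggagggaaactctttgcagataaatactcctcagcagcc
Il6, chr5:30012864-30013113, plus strand: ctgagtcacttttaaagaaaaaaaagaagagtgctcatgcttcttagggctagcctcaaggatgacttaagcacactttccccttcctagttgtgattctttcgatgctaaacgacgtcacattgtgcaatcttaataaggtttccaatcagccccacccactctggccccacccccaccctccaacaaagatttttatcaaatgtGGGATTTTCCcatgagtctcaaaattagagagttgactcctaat
The match in Irgm2 begins 64 bases before the start and that in Igtp 34 bases before it. Ifit3 holds 2 matches, 156 and 122 bases before its start, both on the other strand. The match of Cxcl10 lies farther away, 213 bases before the start, and the kappa-B match of Il6 lies 44 bases before it. Irgm2 and Igtp, neighbours on chromosome 11, share much of this sequence: 194 of 215 aligned bases were identical (90.2%). Among all 32851 RefSeq windows of 300 bases (250 before and 50 after a start), 3.44% held the ISRE core and 1.63% the kappa-B motif.

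The targeted gene was measured first. Tet2 mRNA held 1988, 2399 and 1827 normalised reads (reads divided by the size factor of the library) in untreated control siRNA cells and 1453, 1988 and 1662 in untreated Tet2 siRNA cells. After LPS it held 10405, 16792 and 14762 with control siRNA and 7969 and 9238 with Tet2 siRNA. The groups overlapped without LPS, where the Tet2 siRNA mean was 82.1% of the control mean, and did not overlap after LPS, where it was 61.5%. Tet2 thus had LPS responses of 2.72 and 2.32 log2 units with control and Tet2 siRNA, a difference of -0.39 (SE 0.29, 95% interval -1.03 to 0.24, limma, unadjusted p = 0.205). Tet3, another 5-methylcytosine dioxygenase, had a difference of 0.42 (SE 0.27), and Tet1 did not pass the filter on low values.

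Reads on genes numbered 8739716 to 23030426 per library (median 18844761). The shallowest were untreated replicate 2 with Tet2 siRNA and untreated replicate 3 with control siRNA (8764031 reads), and the latter stood apart with 16406 genes detected, against 12866 to 14180 in the others. The general myeloid markers Itgam, Csf1r, Ptprc, Cd68 and Tyrobp had means of 4522, 8632, 9752, 16110 and 4888 normalised reads over all libraries. Some were lower in every Tet2 siRNA library than in every control library, untreated and LPS-treated alike. Itgam held 1819 to 4019 with Tet2 and 4555 to 6438 with control siRNA, and Csf1r 5148 to 7445 against 10053 to 11267. Tyrobp held 2581 to 4817 against 4967 to 6598, and Aif1 93.4 to 119.5 against 216 to 449, while Ptprc and Cd68 overlapped. How many of all genes lay apart in this way was not counted, so it cannot be called particular to these markers. Markers of microglia in healthy brain were low or absent in this line: Tmem119 averaged 21.4, P2ry12 9.32 and Sall1 0.479 normalised reads, the last from 1 library. Of 25 measured markers of other brain and blood cell types 8 were at 0 in every library, and their summed level ran from 74.3 to 172 normalised reads in untreated and 58.9 to 88.9 in LPS-treated control siRNA cells, and from 57.9 to 80.1 and 51.6 to 60.0 with Tet2 siRNA. The part of either marker set in the results was not tested.

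Across all genes, limma called 0 higher and 0 lower at an adjusted p under 0.05 (0% of 12486), with a smallest adjusted p of 0.9997, and voom on reads recovered from the table also called 0. At an unadjusted p under 0.05 there were 98 genes higher (0.785%) and 183 lower (1.47%), fewer than that threshold admits when no gene differs. The precision sets a limit on what could be seen: the median standard error was 0.31 log2 units and the median 95% interval reached 0.67 to either side. Differences were centred at 0, with 6316 genes below and 6170 above it. Another description asked, for each gene, whether every LPS-minus-untreated difference between single libraries with Tet2 siRNA lay outside the range of those with control siRNA. Ranges lay apart for 129 genes higher (1.03%) and 157 lower (1.26%). This description uses the same libraries as the p-values, so for genes named by a small p it adds no separate support. Levels after LPS that do not overlap between siRNA groups, given for single genes above and below, are a different description. Their share among all genes was not counted, and the shares for response ranges are no background for it. Choice by small p also favours such separation.

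**Figure D1:**
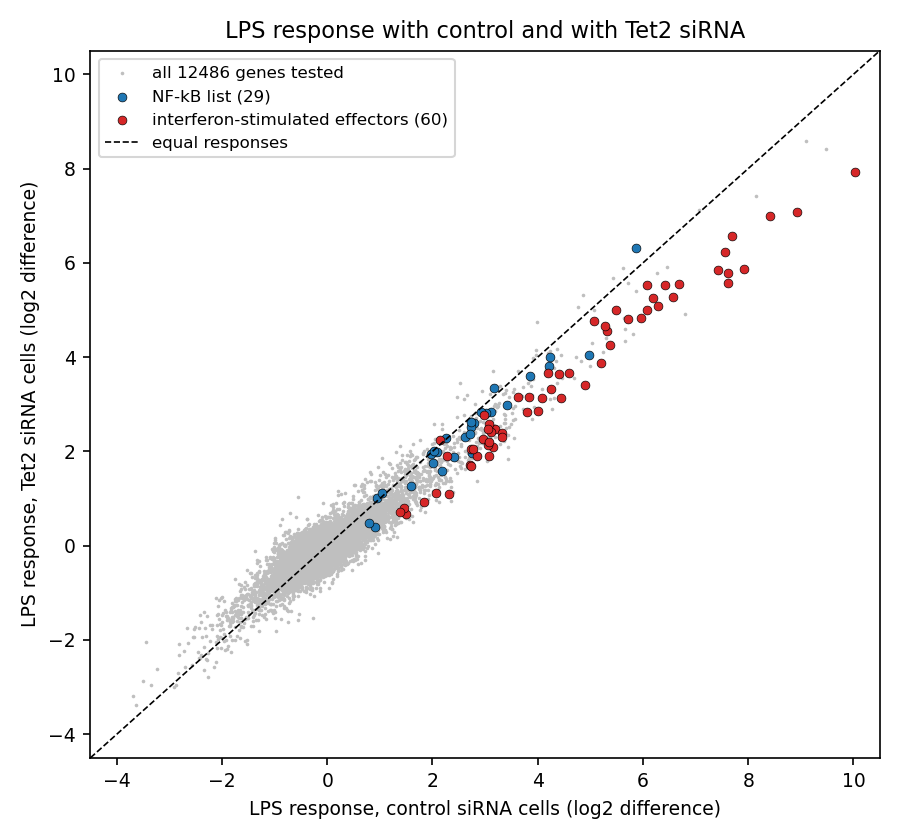
LPS response (LPS minus untreated, log2) with control siRNA on the x axis and with Tet2 siRNA on the y axis, 1 point per gene, with 29 NF-kB genes in blue and 60 interferon-stimulated effectors in red. On the dashed line both responses are equal, and 59 of the 60 red points and 24 of the 29 blue points lie below it.

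Interferon-stimulated effectors, the antiviral and immune defence genes that interferon switches on, had the lowest median difference of the 23 lists examined. The lists were written with earlier results of these data known, so this rank is description and no separate support. Of 64 listed genes 60 passed the filter. Their median was -0.93 (middle 50% from -1.15 to -0.69), against -0.0040 over all genes, and 28 of them were lower at an unadjusted p under 0.05 (46.67%, against 1.47% of all genes), 0 higher, with 0 called after adjustment. Response ranges lay apart for 8 of the 60, all lower, against 1.26% of all genes. Their median LPS response was 4.13 log2 units with control siRNA and 3.16 with Tet2 siRNA. The median Tet2 siRNA effect on these genes was 0.01 in untreated and -0.93 in LPS-treated cells. Without the 5 members at 0 reads in an untreated group, the other 55 had a median of -0.93, and all 55 lay below 0. All members are measured in the same 11 libraries, so their shared sign is not a count of independent observations.

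The libraries show how far this goes beyond their spread. Expressed as the median deviation of the members from their mean over groups, the level after LPS was 2.31, 2.82 and 1.77 with control siRNA and 1.17 and 1.57 with Tet2 siRNA, so the LPS-treated groups did not overlap. Untreated levels were -1.81, -1.55 and -2.14 with control siRNA and -1.98, -1.64 and -1.98 with Tet2 siRNA, which did overlap. Responses formed from single libraries ran from 3.32 to 4.96 with control siRNA and from 2.81 to 3.55 with Tet2 siRNA and therefore overlapped. Among the LPS-treated control libraries replicate 2 was highest and replicate 3 lowest. Without the first the median difference of the list was -0.68 with 16 members lower at an unadjusted p under 0.05, and without the second it was -1.17 with 46. Leaving out LPS replicate 2 with Tet2 siRNA gave -0.77 with 9 such members. The fit then assumes that the lone library left varies like the other groups.

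**Figure D2:**
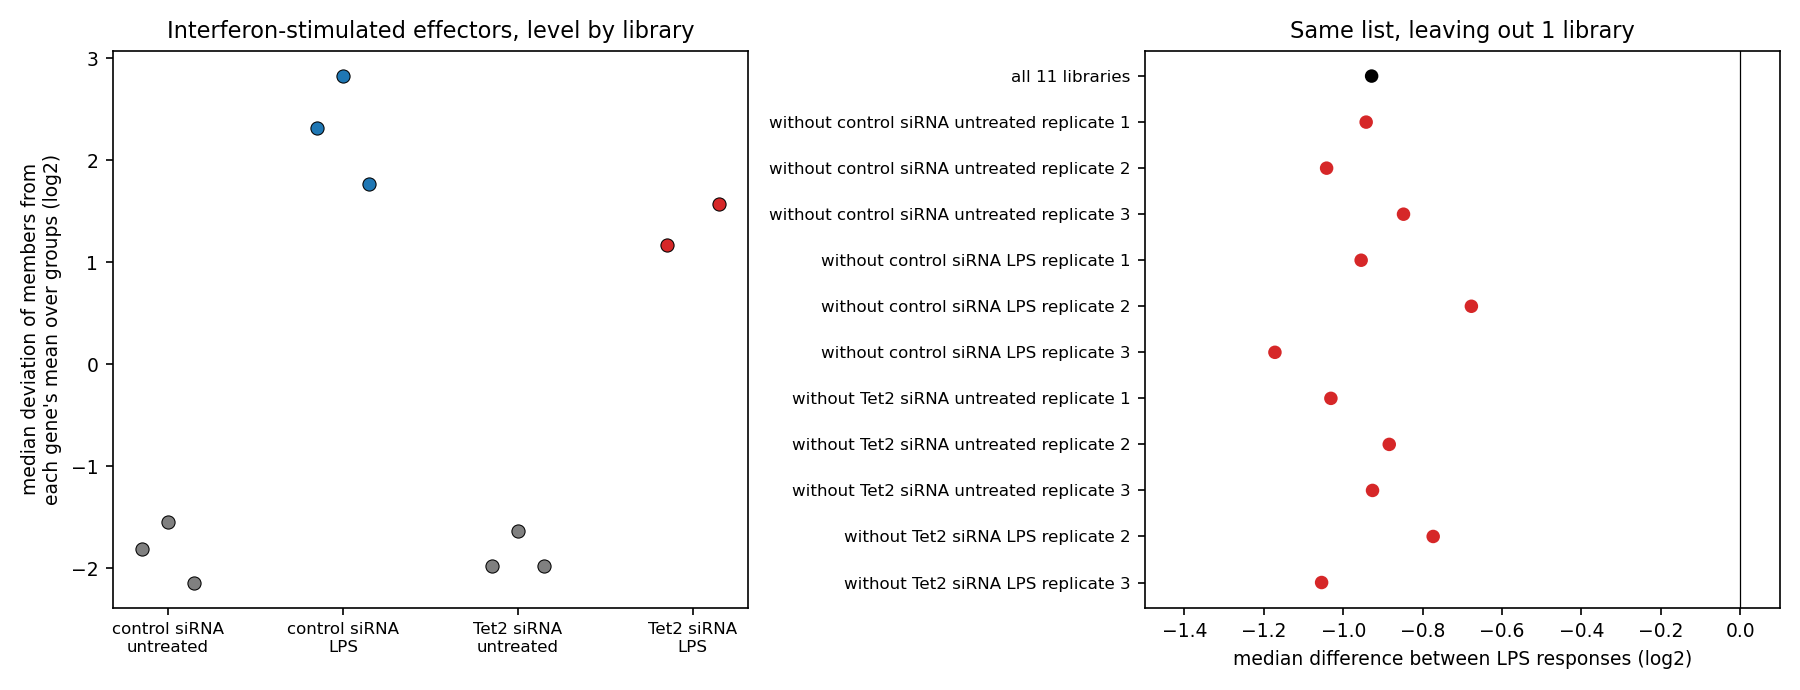
Left, level of the interferon-stimulated effectors in each of the 11 libraries, as the median over members of the log2 deviation from the mean over groups. Right, median difference between both LPS responses (log2) for all 11 libraries and with 1 left out, which stays below 0 between -1.17 and -0.68.

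Mx2, a dynamin-like GTPase that restricts viruses, had the second smallest p among genes with a difference below 0. It held 3.30, 4.89 and 0 normalised reads in untreated control siRNA cells and 3.45, 3.60 and 5.79 in untreated Tet2 siRNA cells. With LPS it held 4028, 5001 and 2783 with control and 1151 and 1987 with Tet2 siRNA. Every LPS-treated library was far above every untreated one, and both Tet2 siRNA libraries lay below all 3 control libraries. Its LPS response was 7.42 log2 units with control and 5.85 with Tet2 siRNA, a difference of -1.57 (SE 0.41, 95% interval -2.46 to -0.68, limma, unadjusted p = 0.00215). This interval is for Mx2 alone, with no adjustment for the number of genes tested.

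The Ifit genes encode interferon-induced proteins that bind foreign RNA, and reads of family members can be hard to assign. Ifit3 held 5218, 9817 and 2809 normalised reads with control siRNA and LPS and 1619 and 2012 with Tet2 siRNA and LPS. Untreated, it held 4.95, 6.99 and 1.76 with control and 4.31, 10.8 and 13.04 with Tet2 siRNA. Levels after LPS did not overlap, and the difference between responses was -1.84 (SE 0.52, limma, unadjusted p = 0.00381). Ifit2 held 21019, 35963 and 12915 with control siRNA and 6757 and 9511 with Tet2 siRNA after LPS. Untreated, it held 65.2, 94.3 and 29.9 with control and 62.0, 135 and 141 with Tet2 siRNA. Its difference was -2.05 (SE 0.56, unadjusted p = 0.00291), larger than that of Ifit3, but its response ranges met, at 6.70 in both siRNA groups.

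Irgm2 and Igtp belong to the immunity-related GTPases, which act on the vacuoles of intracellular pathogens. Irgm2 held 3632, 4313 and 2012 normalised reads after LPS with control siRNA and 1037 and 1457 with Tet2 siRNA, from 59.4, 62.9 and 50.9 with control and 62.0, 54.1 and 52.2 with Tet2 siRNA untreated. For Igtp the LPS-treated values were 2088, 3367 and 1264 with control and 559.8 and 926 with Tet2 siRNA, and the untreated ones 33.8, 42.6 and 49.2 with control and 43.9, 43.2 and 38.4 with Tet2 siRNA. Neither gene overlapped between siRNA groups after LPS, and both overlapped before it. How many of all genes lay apart after LPS in this way was not counted, and both genes were chosen by small p. The differences were -1.31 (SE 0.37, unadjusted p = 0.00368) for Irgm2 and -1.49 (SE 0.44, unadjusted p = 0.00512) for Igtp, and the ranges of single responses lay apart for both. Both carry the same ISRE core letters in the promoters printed above, and reads of relatives in this family may be shared.

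**Figure D3:**
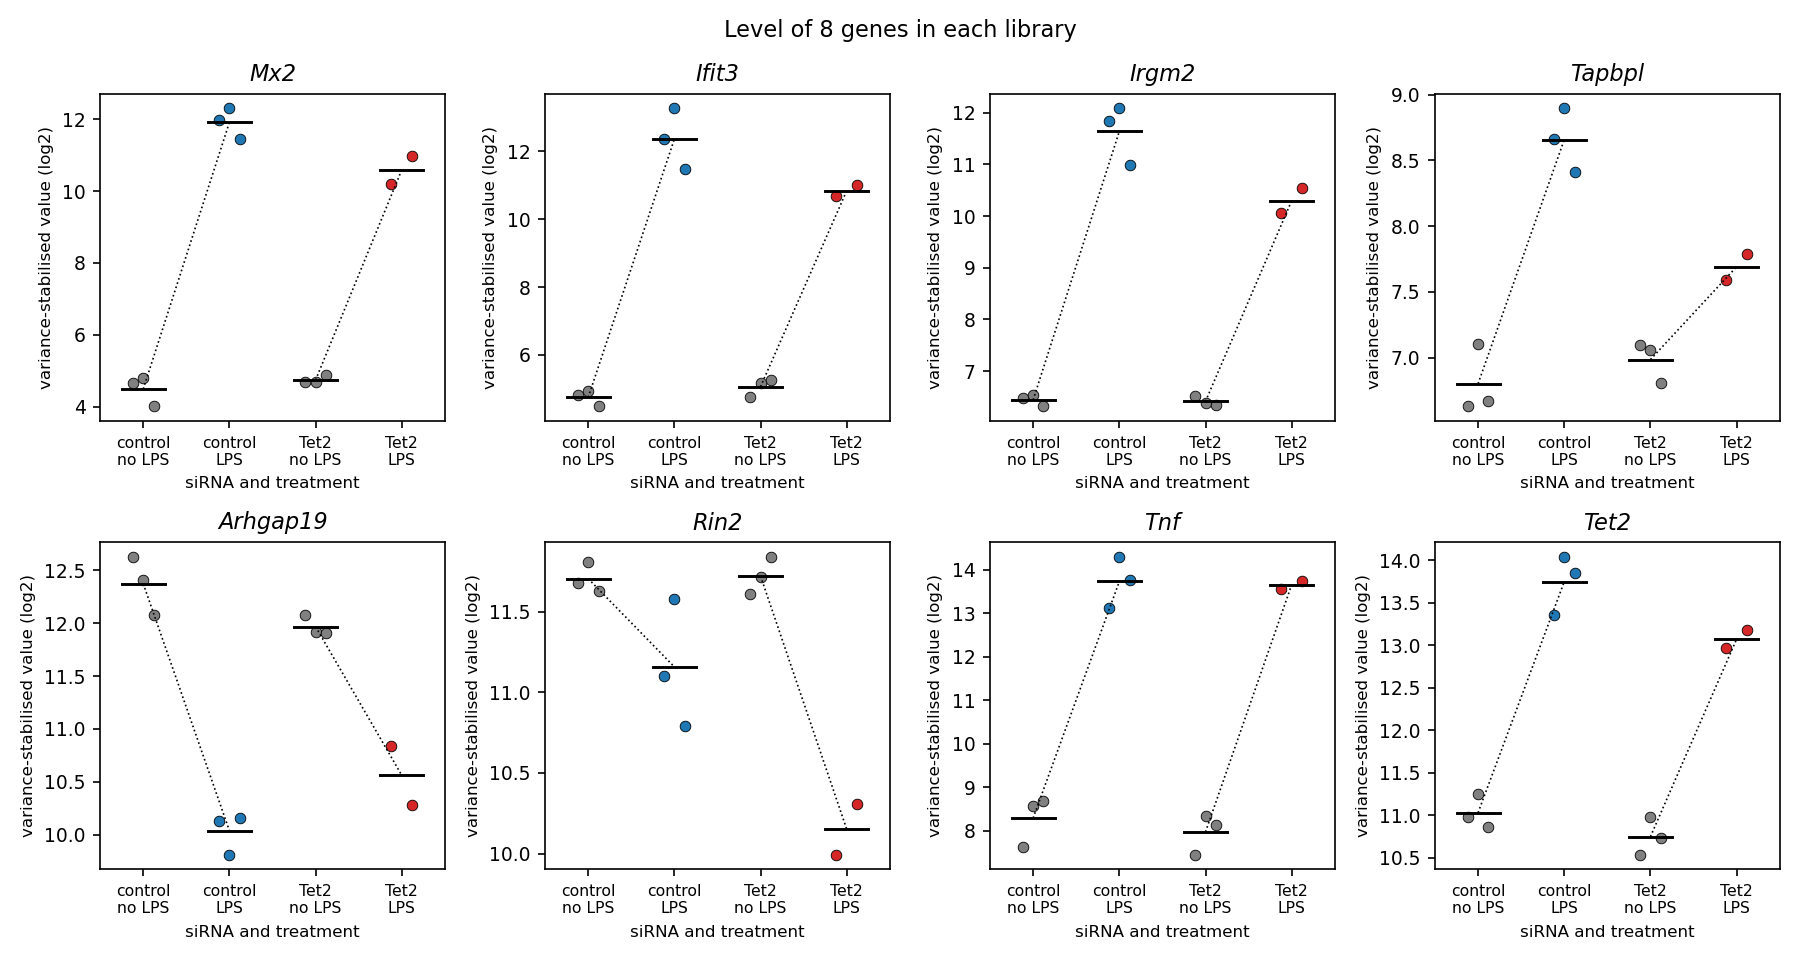
Variance-stabilised log2 value of 8 genes in each library, by siRNA and treatment, with a bar at each group mean and a dotted line from untreated to LPS. Mx2, Ifit3, Irgm2 and Tapbpl start alike and end lower with Tet2 siRNA, Arhgap19 has the smaller decrease and Rin2 the larger one with Tet2 siRNA, and Tnf has lines of like slope.

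The interferon-signalling list had a median of -0.40 over 23 kept genes, with 22 below 0 (95.65%, against 50.58% of all genes). At an unadjusted p under 0.05 (limma), 6 were lower (26.09%, against 1.47%). The list holds type I interferon genes, interferon receptors including Ifngr1 and Ifngr2, and IRF and STAT factors. It also holds the kinases Jak1, Jak2, Tyk2, Tbk1 and Ikbke, and Socs1, Socs3 and Usp18. Over the alternatives the median ran from -0.69 to -0.29. Ifnb1, the gene of interferon beta, was at 0 reads in all 6 untreated libraries. After LPS it held 76.5, 182 and 23.5 normalised reads with control siRNA and 53.7 and 16.1 with Tet2 siRNA. The groups overlapped, and the difference of -0.82 (SE 0.60, 95% interval -2.12 to 0.48, unadjusted p = 0.194) rests on few reads. Other members of the list had smaller errors. Jak2 and Irf1 are given because they were among its 3 members of smallest p. Nearer 0 were Jak1 at -0.39 (SE 0.21), Irf9 at -0.26 (SE 0.27) and Tyk2 at -0.07 (SE 0.38). Jak2, a tyrosine kinase of cytokine receptors, held 4249, 5540.3 and 3575 normalised reads after LPS with control siRNA and 1904 and 3266 with Tet2 siRNA, from 556, 566 and 341 with control and 575, 811 and 547 with Tet2 siRNA untreated, a difference of -1.20 (SE 0.38, unadjusted p = 0.00835). Irf1, a transcription factor induced by interferon and NF-kB, held 11947, 11732 and 7843 with control and 3251 and 6351 with Tet2 siRNA after LPS, with a difference of -1.13 (SE 0.38, unadjusted p = 0.0112). Jak2 and Irf1 lay lower after LPS in both Tet2 siRNA libraries than in every control library, while response ranges lay apart for Jak2 and overlapped for Irf1.

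Antigen presentation and costimulation genes had the second lowest median, -0.54 over 22 genes, 20 of them below 0 and 4 lower at an unadjusted p under 0.05 (18.18%, against 1.47% of all genes). The median was -0.22 without LPS replicate 2 of Tet2 siRNA and -0.83 without LPS replicate 3. Tapbpl, which edits the peptides on MHC class I, had the smallest p of all genes with a difference below 0. It held 375, 444 and 309 normalised reads with LPS and control siRNA and 162 and 190.1 with LPS and Tet2 siRNA. Untreated, it held 69.3, 107 and 72.0 with control and 106, 103 and 81.9 with Tet2 siRNA. The LPS response was 1.86 with control and 0.71 with Tet2 siRNA, a difference of -1.15 (SE 0.29, 95% interval -1.78 to -0.52, limma, unadjusted p = 0.00179). Cd86, a ligand of CD28 on T cells, showed responses of opposite sign: 0.53 with control and -0.29 with Tet2 siRNA. Its values were 1210.3, 1098 and 894 untreated and 1603, 1745 and 1325 after LPS with control siRNA, and 936, 852 and 889 untreated and 653 and 796 after LPS with Tet2 siRNA. Cd86 was already at 83.6% of the control mean in untreated Tet2 siRNA cells and at 46.5% after LPS, and its difference was -0.83 (SE 0.24, unadjusted p = 0.00501). Tap1, which carries peptides to MHC class I, had a difference of -1.20 (SE 0.52, unadjusted p = 0.037) with overlapping response ranges.

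The NF-kB branch had smaller values. Its list also had a smaller median LPS response, 2.73 log2 units with control siRNA against 4.13 for interferon-stimulated effectors. The part of response size in this was not tested. For NF-kB subunits, targets and feedback genes the median difference was -0.26 over 29 genes, with 24 below 0 and 1 lower at an unadjusted p under 0.05, namely Cflar (-0.71, SE 0.27), an inhibitor of caspase-8. That share, 3.45%, is near the 1.47% of all genes, and the median ran from -0.43 to -0.088 without LPS replicates 3 and 2 of Tet2 siRNA in turn. The level of the list after LPS was 1.57, 1.46 and 1.36 with control siRNA and 0.92 and 1.26 with Tet2 siRNA, which did not overlap, from untreated levels of -1.22, -1.14 and -1.35 with control and -1.20, -1.25 and -1.26 with Tet2 siRNA. Cytokines as a list had a median of -0.15 over 20 genes (12 below 0), and chemokines one of -0.09 over 16 (8 below 0). TLR4 signalling components had a median of -0.07 over 27 genes, with Peli1, an E3 ubiquitin ligase, at -0.56 (SE 0.23, unadjusted p = 0.0332) and Tlr2, the receptor of bacterial lipopeptides, at -0.90 (SE 0.45).

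Classical inflammatory products showed no difference beyond their error, with wide intervals. Tnf held 8937, 20155 and 13996 normalised reads with LPS and control siRNA and 12125 and 13822 with LPS and Tet2 siRNA, from 167, 351 and 379 with control and 145, 292 and 251 with Tet2 siRNA untreated. The Tet2 siRNA values lay inside the control range, and the difference was 0.25 (SE 0.50, 95% interval -0.83 to 1.32). Il1b, the gene of interleukin 1 beta, had LPS responses of 7.07 and 7.13 and a difference of 0.06 (95% interval -0.77 to 0.89). Ptgs2, the inducible cyclooxygenase, held 9510.0, 13904 and 10417 with control and 12728 and 12530.1 with Tet2 siRNA after LPS, with a difference of -0.06 (95% interval -0.69 to 0.56). Il6 was at 0 reads in every untreated library and held 622, 2108 and 582 with control and 593 and 718 with Tet2 siRNA after LPS, a difference of -0.47 (95% interval -1.66 to 0.71) that was 0.11 without the highest control library. Nos2, the inducible nitric oxide synthase, held 13990.0, 11758 and 8542 with control and 3177 and 8516 with Tet2 siRNA, and the pair of Tet2 siRNA libraries was itself far apart (-0.49, 95% interval -2.04 to 1.06). The sign of all 5 turned under at least 1 alternative setting, given with the limits of the processing.

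Chemokines lay on both sides of 0. Cxcl10, an interferon-induced ligand of CXCR3, held 17093, 31910.4 and 14610.2 normalised reads with LPS and control siRNA and 10156 and 10281 with LPS and Tet2 siRNA, which did not overlap. Its untreated values were 0, 9.08 and 14.1 with control and 0, 7.21 and 25.4 with Tet2 siRNA, and the difference was -1.06 (SE 0.64, 95% interval -2.44 to 0.32). Ccl5, a chemokine that attracts T cells, had a difference of -0.53 (SE 0.40), with 2887, 5812 and 2694 with control and 2631 and 2925 with Tet2 siRNA after LPS. Ccl2, the monocyte attractant, lay on the other side of 0 at 0.75 (SE 0.63). Its LPS-treated values, 4206, 9923 and 5391 with control and 4649 and 7164 with Tet2 siRNA, overlapped, and its untreated values were 162, 422 and 618 with control and 121, 243 and 217 with Tet2 siRNA. Ccrl2, an atypical chemokine receptor, was the 1 chemokine-list gene lower at an unadjusted p under 0.05, at -1.07 (SE 0.43), and its LPS-treated Tet2 siRNA values of 675 and 1556 were far apart.

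Size of the LPS response was then set against the difference. Genes were grouped by an average LPS effect that weighted the control siRNA response by 5/9 and the Tet2 siRNA response by 4/9, a weighting that makes the grouping independent of the difference if all libraries vary alike. On that average 1994 genes were induced (16%) and 1780 repressed (14.3%). The 67 genes induced by 4 or more log2 units had a median difference of -0.81, and the 225 induced by 2 to 4 had -0.48. Medians were -0.29 for the 490 induced by 1 to 2 and -0.20 for the 1212 induced by less. The 8712 genes not called had a median of 0.0094. Repressed genes lay on the other side of 0, with 0.13 for the 1390 repressed by under 1, 0.24 for the 343 repressed by 1 to 2 and 0.19 for the 47 repressed by 2 or more. Over the 20 alternatives the signs held in the 5 classes beyond 1 log2 unit, but the sizes moved. Medians ran from -1.05 to -0.55 for genes induced by 4 or more, and without LPS replicates 3 and 2 of Tet2 siRNA they were -0.71 and -0.24 for 2 to 4 and -0.46 and -0.13 for 1 to 2. Genes repressed by 2 or more ran from 0.029, without the 2 shallowest libraries, to 0.33.

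**Figure D4:**
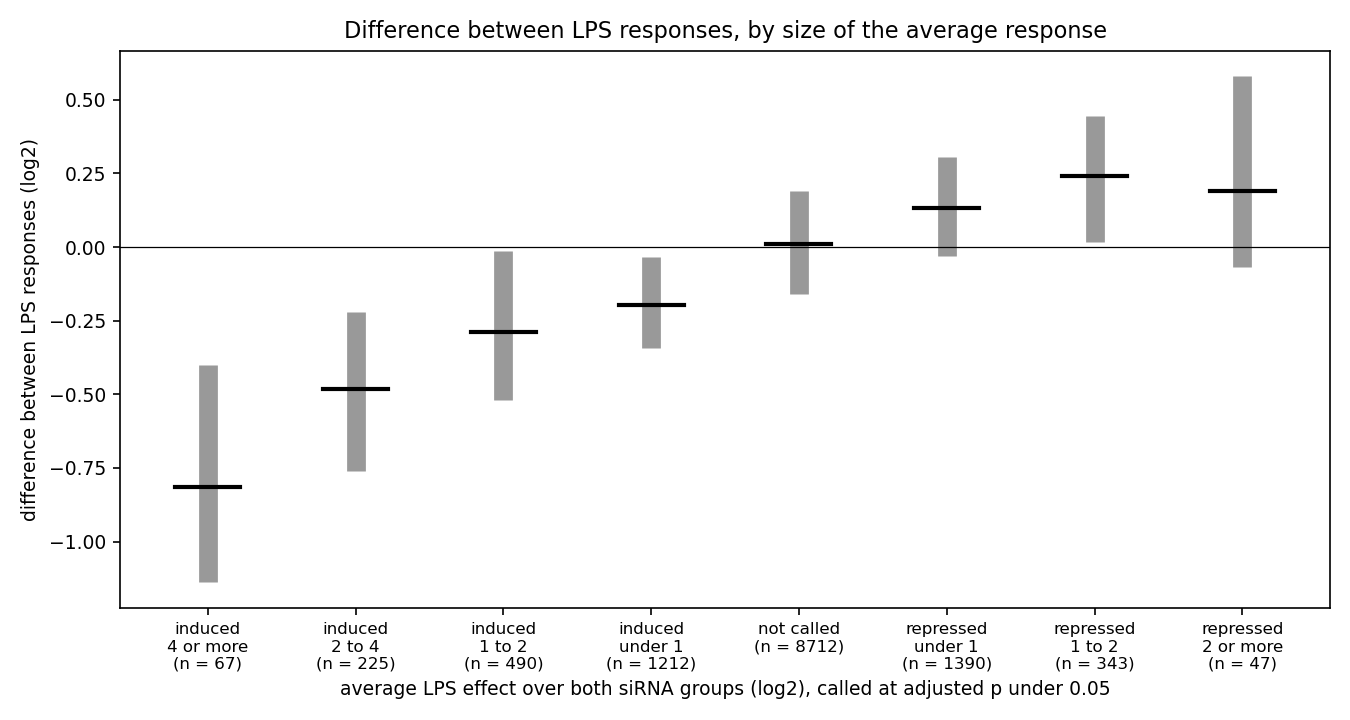
Difference between both LPS responses (log2) for genes grouped by the average LPS effect over both siRNA groups (log2), as the median (black line) and the middle 50% of genes (grey bar). Medians run from -0.81 in the most induced genes through 0.0094 in genes not called to 0.24 in genes repressed by 1 to 2 log2 units.

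In both directions the response was thus nearer 0 with Tet2 siRNA at the median: genes induced by 4 or more had median responses of 5.48 with control and 4.82 with Tet2 siRNA, and genes repressed by 1 to 2 had -1.38 and -1.18. Of the 1994 induced genes 148 were lower (7.42%) and 8 higher (0.40%) at an unadjusted p under 0.05. Of the 1780 repressed ones 12 were lower (0.67%) and 49 higher (2.75%), with 0 called in either group. Over all genes these shares were 1.47% lower and 0.785% higher. Among genes induced by 2 or more, the 54 interferon-stimulated effectors had a median of -0.93 (53 below 0, 26 or 48.15% lower at an unadjusted p under 0.05). The other 238 had -0.43 (206 below 0, 33 or 13.87% lower at an unadjusted p under 0.05). Interferon-stimulated effectors therefore lay lower than other genes in the same class, although their median control response, 4.43, was also larger than the 2.97 of the others. No test of this gap was made, since genes of the same libraries are not replicates.

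Promoter letters gave another grouping, applied within the classes of average LPS effect. Of the 12486 genes 9506 had a RefSeq promoter window, and 376 of them (3.96%) held the ISRE core and 198 (2.08%) the kappa-B motif. The ISRE core was in 25 of 48 interferon-stimulated effectors with a window (52.08%) and in 1 of 26 NF-kB genes, and the kappa-B motif in 1 and 6 of them. The 1 NF-kB gene with an ISRE core was Cflar, which had no kappa-B motif. Cflar was also the 1 gene of its list lower at an unadjusted p under 0.05 (limma). Among the 226 genes with a window that were induced by 2 or more, those with an ISRE core and no kappa-B motif had a median difference of -0.87 (49 genes, 48 below 0). Those with a kappa-B motif and no ISRE core had -0.49 (18 genes, 17 below 0), and those with neither had -0.48 (158 genes, 134 below 0). The first of these groups also had the larger median average LPS effect, 3.73 log2 units against 2.70 and 2.78, and its part in the gap was not tested. Over all 20 alternatives the median ran from -1.07 to -0.56 for genes with an ISRE core. It ran from -0.66 to -0.30 for those with a kappa-B motif and from -0.72 to -0.19 for those with neither, so these ranges overlapped. The values of -0.30 and -0.19 were those without LPS replicate 2 of Tet2 siRNA. The 26 genes with an ISRE core that are not on the interferon list had -0.70, with 25 below 0. Their median average LPS effect was 3.11 log2 units. At an unadjusted p under 0.05 (limma), 4 of these 26 were lower, against 31 of the 158 with neither motif. Those counts were 16 of 49 with only the ISRE core, 2 of 18 with only kappa-B and 143 of 9506 over all genes with a window. The group with neither motif still held interferon-list members such as Ifit2. Genes with an ISRE core that were not called on the average LPS effect, 195 in all, had a median of -0.02. A match is a run of letters and does not show that a factor binds there.

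Outside the interferon and antigen presentation lists, the genes with the smallest p included Rin2, Rufy4 and Zbtb5. Rin2, an activator of the endosomal GTPase RAB5, held 3248, 3549 and 3134 normalised reads untreated and 2167, 3031 and 1736 after LPS with control siRNA, and 3087, 3326 and 3633 untreated and 987 and 1233 after LPS with Tet2 siRNA. Its decrease was larger with Tet2 siRNA (-1.57 against -0.55 log2 units), a difference of -1.02 (SE 0.28, unadjusted p = 0.00335). Rufy4, an autophagy-related gene of dendritic cells, held 49.5, 28.8 and 21.6 after LPS with control siRNA and 1.56 and 3.22 with Tet2 siRNA, near 0 reads, with 47.9, 41.9 and 40.4 with control and 61.2, 28.8 and 34.8 with Tet2 siRNA untreated (-1.27, SE 0.34). Zbtb5, a zinc finger gene, held 295, 287 and 203 with control and 113 and 177 with Tet2 siRNA after LPS (-1.09, SE 0.32). For all 3 the response ranges lay apart, which their choice by small p favours.

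The 10 genes with the smallest p among differences above 0 had values from 0.79 to 1.41. Arhgap19 held 6282, 5404 and 4293 normalised reads untreated and 1092, 868 and 1115 after LPS with control siRNA, and 4293, 3820.2 and 3801 untreated and 1795 and 1217 after LPS with Tet2 siRNA. Its mean was thus lower with Tet2 siRNA before LPS, and both Tet2 siRNA libraries were higher after it, with responses of -2.33 and -1.40 and a difference of 0.93 (SE 0.28, unadjusted p = 0.00588). Lyl1, a haematopoietic transcription factor, held 45.0, 23.7 and 54.9 after LPS with control and 146 and 93.5 with Tet2 siRNA, from 541, 504 and 1302 with control and 494, 639.7 and 604 with Tet2 siRNA untreated. Replicate 3 of the untreated control cells, the library with the most genes detected, was the highest, and the difference of 1.41 (SE 0.48, unadjusted p = 0.0117) was 0.99 without it. Frat2, an inhibitor of GSK3, held 1.12, 3.09 and 6.87 after LPS with control and 26.5 and 20.4 with Tet2 siRNA, from 82.6, 72.0 and 65.0 with control and 71.5, 101 and 69.5 with Tet2 siRNA untreated (0.90, SE 0.30). On this scale genes near 0 reads are compressed, and voom on recovered reads gave 2.68 for Frat2. The other 7 were Gm17427, Gm9881, 2310014L17Rik, Tmem72, Loxl3, Sap25 and Apbb3, with differences up to 1.34. Response ranges lay apart in all 10 but Tmem72, which their choice by small p favours. With voom Gm17427 stood at 3.998, Gm9881 at 3.24 and 2310014L17Rik at 2.32.

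Lists of dividing cells had the highest medians. DNA replication genes had a median of 0.32 (24 of 27 above 0) and mitosis genes one of 0.31 (25 of 28 above 0), with 0 genes of either at an unadjusted p under 0.05. These medians rested on the pair of LPS-treated Tet2 siRNA libraries: without its replicate 2 the replication list stood at -0.094 and the mitosis list at 0.034, and without its replicate 3 at 0.77 and 0.59. The level of the DNA replication list was -0.57, 0.04 and -0.10 untreated and -0.74, -0.45 and -0.62 after LPS with control siRNA. With Tet2 siRNA it was -0.36, 1.14 and 0.48 untreated and 0.88 and 0.01 after LPS. Replicate 2 was the highest with Tet2 siRNA in both treatments, and the range within 1 group was wider than the median difference. Ccne2, cyclin E2, which acts at the start of replication, held 148, 275 and 302 untreated and 78.7, 118 and 109.9 after LPS with control siRNA, and 149.9, 508 and 370.1 untreated and 375 and 231 after LPS with Tet2 siRNA, a difference of 0.95 (SE 0.54). Ccna2, cyclin A2, had 0.66 (SE 0.42).

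The remaining lists had medians between -0.31 and 0.19. Disease-associated microglia, complement and lysosome genes were at -0.31 (29 of 33 below 0, 0 at an unadjusted p under 0.05), with the complement gene C3 at -0.90 (SE 0.49) and the receptor C5ar1 at 0.77 (SE 0.40). Inducible enzymes and effectors were at -0.26 (15 of 21 below 0), NRF2 targets at -0.22 (15 of 20) with Txnrd1, a thioredoxin reductase, at -0.75 (SE 0.33), and glycolysis and hypoxia genes at -0.10 (20 of 25) with the hexokinase Hk1 at -0.58 (SE 0.26). Ribosomal protein genes were at -0.09, immediate early genes at -0.08, stress response genes at -0.06, oxidative phosphorylation at -0.03 and homeostatic microglia genes at -0.01. Above 0 lay the TET and DNMT genes at 0.01, the 4 kept markers of other cell types at 0.02, p53 targets at 0.08, histones at 0.10 and cholesterol and fatty acid synthesis at 0.19 (4 of 25 below 0). Arg1, the arginase of alternatively activated macrophages, held 2648, 2257 and 2986 untreated and 2751, 2267 and 3059 after LPS with control siRNA. With Tet2 siRNA it held 1103, 292 and 1202 untreated and 254 and 1134 after LPS, lower in both treatments and lowest in both replicates numbered 2, and its difference was -0.45 (SE 0.76, 95% interval -2.08 to 1.19).

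**Figure D5:**
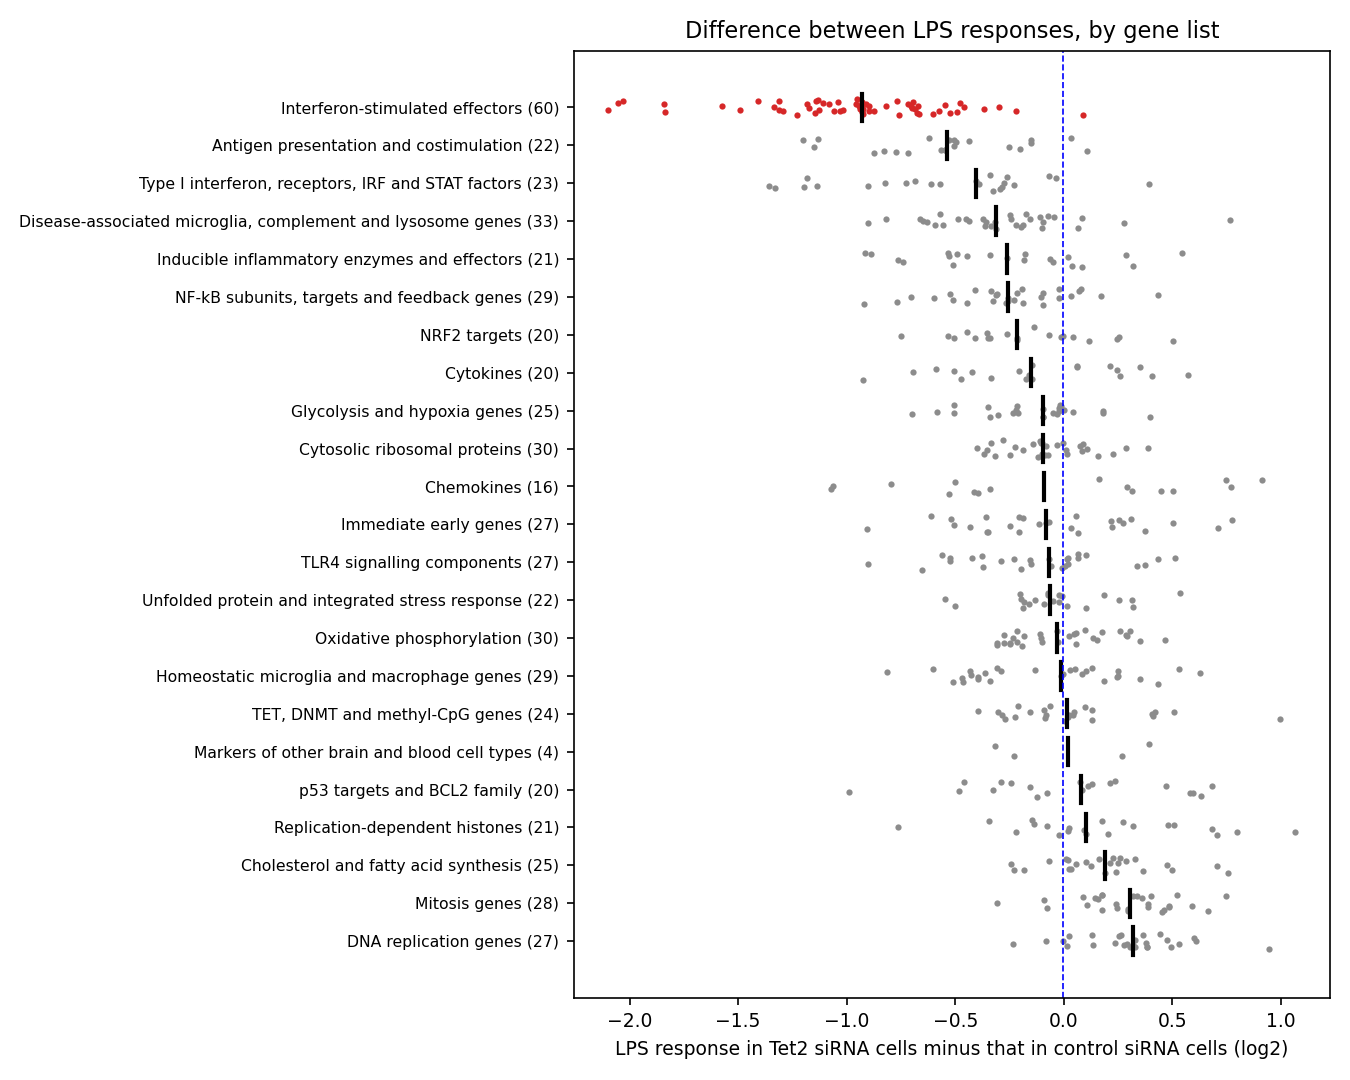
Difference between both LPS responses (log2) for each kept member (point) of 23 gene lists, with the list median as a black bar and the number of members in parentheses. Interferon-stimulated effectors (red) have the lowest median, -0.93, and DNA replication genes the highest, 0.32.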

How the data were processed

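RNA from 11 libraries of BV2 cells in 4 groups was analysed. The tools were DESeq2, TopHat2 2.0.9 and Trim Galore 0.3.3, with the mm9 build, per the submitters' processing notes. The read counter, its use of strand, the annotation and the DESeq2 version were not given in the sources used here, so genes with near-identical copies (Ifit, Oas, Gbp, immunity-related GTPases, histones) and overlapping or antisense genes are uncertain. The authors deposited 1 table of 26061 genes in variance-stabilised values on a log2 scale, whose lowest value is 4.02, at 0 reads. When the transform was inverted, 100% of values came out as whole reads (tolerance 0.01), from which normalised reads and depth were taken. Date-like entries stood in place of 25 gene names, which are not named here.

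The log2 values were fitted with limma 3.58.1 in R 4.3.3, with 1 mean per group, a variance trend, and two-sided tests adjusted by Benjamini-Hochberg (threshold 0.05). The filter asked for a value 1 log2 unit or more over the lowest in 2 or more libraries. The difference between the LPS responses shares its libraries with the separate responses, which are given only beside it. The procedure was tested on simulated data in which groups were alike, except for chosen genes in the LPS-treated Tet2 siRNA libraries. Such data hold no general LPS response, so they do not show how many differences would be found among strongly induced genes. Motifs were searched in RefSeq promoter windows of GRCm38.p6, matched by symbol for 8479 genes and by synonym for 1027, with chromosome 18 left out. No coordinate was converted between builds.

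The lists, the genes to be named and the tests were chosen with earlier results of these data known. Named were 13 genes (Arg1, Ifnb1, Cxcl10, Ccl5, Ccl2, Tnf, Il1b, Nos2, Il6, Ptgs2, Tet1, Tet2 and Tet3), the 10 genes with the smallest p on either side of 0, and, from every list, the 3 members of smallest p. Alternatives were no filter, a stricter filter, quantile normalisation, median centring, no variance trend, library weights, the replicate number as a block, voom on the recovered reads, leaving out each library in turn and, chosen after the data had been seen, leaving out the 2 shallowest libraries. Some genes that this rule selects are not reported here.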

Additional observations from a re-analysis of the deposited data

How the results depend on the processing

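Under all 20 alternatives 0 genes were called in either direction, with a smallest adjusted p of 0.56, reached without LPS replicate 3 of control siRNA. The median of the interferon-stimulated effectors stayed below 0, from -1.17 to -0.62 (library weights). Genes higher at an unadjusted p under 0.05 numbered 236 with no filter, 56 with the stricter filter, 59 with quantile normalisation and 264 with library weights, and 36 to 152 leaving out 1 library. Genes lower numbered 308 with library weights and 44 to 366 leaving out 1 library, lowest without LPS replicate 2 and highest without LPS replicate 3 of Tet2 siRNA. Those counts were 93 and 357 without LPS replicates 2 and 3 of control siRNA, and 118 without untreated replicate 3 of Tet2 siRNA. Interferon-stimulated effectors lower at that p numbered 14 with voom, 16 without the 2 shallowest libraries and 9 to 46 leaving out 1 library. The cause of these shifts was not tested.

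With the replicate number as a block, 96 genes were higher and 198 lower at an unadjusted p under 0.05, 35 of them interferon-stimulated effectors, whose median was -0.98, and Tnf stood at -0.052. Pairing by number was to be taken as shown only if every same-numbered pair of libraries deviated together with r over 0.1. Of 15 such pairs 8 did (range -0.28 to 0.63, against -0.63 to 0.55 for different numbers), so the numbers were not treated as pairing. The LPS-treated Tet2 siRNA group has only 2 libraries, whose deviations are exact opposites. Its values of 0.63 and -0.63 with untreated replicate 2 of Tet2 siRNA therefore mirror each other, and the range for different numbers is not an independent background.

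Of 95 named genes 89 kept their sign. Most of these 89 were chosen by a small p in the same libraries, which favours a stable sign, so this share does not measure robustness. The 6 that changed sign (Tnf, Il1b, Ptgs2, Il6, Nos2 and Arg1) were all among the genes named without regard to p. Tnf was -0.037 with library weights and -0.056 to 0.58 leaving out 1 library, and Il1b was -0.14 and -0.18 to 0.28. Ptgs2 was 0.12 with quantile normalisation and -0.23 to 0.10 leaving out 1 library. Over the libraries left out Il6 ran from -0.79 to 0.11, Nos2 from -1.20 to 0.22 and Arg1 from -1.46 to 0.57. Differences of genes near 0 reads are compressed on this scale.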

Other observations

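Some named genes that no comparison above took up are given as values only. Gadd45g, a stress gene on the list of p53 targets and BCL2 family genes, had a difference of -0.99 between both LPS responses (limma, unadjusted p = 0.0415). Sesn1, a p53 target on the same list, had 0.58 (unadjusted p = 0.0334). Gadd45a, a relative of Gadd45g that sits on the list of DNA demethylation genes, stood at 1.00 (unadjusted p = 0.0698). Herpud1, a gene of endoplasmic reticulum stress, had 0.53 (unadjusted p = 0.0461). None of the 4 passed after adjustment.

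Among microglial surface genes Fcgr1, a high-affinity antibody receptor, had -0.81 (unadjusted p = 0.0524). It held 1398, 1979 and 835 normalised reads with control siRNA and LPS and 473 and 445 with Tet2 siRNA and LPS, against 760.3, 998 and 857 with control and 459.96, 533 and 636 with Tet2 siRNA untreated. Its level with Tet2 siRNA was lower than every control library in both treatments. The share of all genes for which this holds was not counted. Maf, a macrophage transcription factor, had -0.60 (unadjusted p = 0.0521), with responses of 0.09 with control and -0.52 with Tet2 siRNA.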
